A study of Mus musculus with 5 samples.

Results

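The Ifi200 family genes were followed in mouse bone marrow mesenchymal stem cells (MSC), in 2 arrays of MSC kept for 48 h in a transwell with 10 purified T cells for each MSC, the T cells having been activated with antibodies to CD3 and CD28, and in 3 arrays of MSC alone (called naive MSC by the submitters). All cells were primary cultures grown in Mesencult medium, each array is labelled as its own biological repetition, and the labels do not say whether the repetitions came from separate animals. The transwell membrane lets soluble products pass and keeps T cells and MSC apart. A gene was taken as a family member where a probe set carried it as its single symbol and the symbol was Aim2, Mnda, Mndal or an Ifi symbol numbered in the family's series. This gave 8 probe sets of 5 genes, Aim2, Ifi207, Ifi209, Ifi213 and Mndal, among 3373 probe sets and 2190 named genes in the deposited table.

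The Ifi200 proteins, also called p200, HIN-200 or PYHIN proteins, are encoded by a cluster of related genes and are known as interferon-inducible. Most combine an amino-terminal pyrin domain, which binds other pyrin domain proteins, with a carboxy-terminal HIN domain, which binds DNA. Aim2 senses double-stranded DNA in the cytosol and assembles an inflammasome through the adaptor encoded by Pycard, and other p200 proteins of the mouse have been linked to STING-dependent interferon responses, to transcription and to restraint of cell growth.

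The values are on a log2 scale, 1 per probe set and array, and the table holds part of an array. In all 3373 probe sets the 2 co-culture arrays lay on one side of the 3 arrays of MSC alone, with a smallest gap between the groups of 0.34 on the log2 scale. The members were thus, through the table, selected on the same values in the same 5 arrays that are compared here, and a member had to differ. The values of the members are given as a description, with no test. All 5 arrays of the series enter this comparison, so none was left in which the difference could be tested apart from the selection. With RNA from whole cultures, more cells of a type and more RNA per cell cannot be told apart.

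In RefSeq's annotation of assembly GRCm38.p6, 13 protein-coding genes carry a family symbol, and all 13 lie side by side on chromosome 1 with 0 other protein-coding genes among them, between Cadm3 and Olfr433. Their order is Aim2, Ifi206, Ifi214, Ifi213, Ifi209, Ifi208, Ifi207, Ifi204, Mndal, Ifi211, Ifi203, Ifi202b and Ifi205. The 5 measured genes were thus spread over the cluster from its Cadm3 end to beyond its middle, and Ifi213 and Ifi209 were direct neighbours. The other 8 genes had no probe set of their own in the table and were not analysed here as single genes. The 3 protein-coding genes on either side of the cluster (Mptx2, Ackr1 and Cadm3, and Olfr433, Olfr432 and Olfr430) were not analysed here.

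The 250 bases before the annotated starts of the 5 measured genes are shown because these genes were all higher in co-culture and because most family genes share a short run there. They come from RefSeq's annotation of GRCm38.p6, at chr1:173880188-173880437, minus strand for the more upstream of the annotated starts of Mndal, chr1:173741810-173742059, minus strand for Ifi207, chr1:173599273-173599522, minus strand for Ifi213, chr1:173630609-173630858, plus strand for Ifi209 and chr1:173420354-173420603, plus strand for Aim2. Capitals mark a match to the core of the interferon-stimulated response element (ISRE), GAAANNGAAA on either strand, and in Ifi209 the nearest run, which is not a match.
Mndal: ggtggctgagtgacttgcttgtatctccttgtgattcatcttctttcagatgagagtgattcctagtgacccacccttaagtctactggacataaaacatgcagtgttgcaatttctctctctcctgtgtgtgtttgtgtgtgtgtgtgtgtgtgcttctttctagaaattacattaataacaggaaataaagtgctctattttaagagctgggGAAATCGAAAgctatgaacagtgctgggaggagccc
Ifi207: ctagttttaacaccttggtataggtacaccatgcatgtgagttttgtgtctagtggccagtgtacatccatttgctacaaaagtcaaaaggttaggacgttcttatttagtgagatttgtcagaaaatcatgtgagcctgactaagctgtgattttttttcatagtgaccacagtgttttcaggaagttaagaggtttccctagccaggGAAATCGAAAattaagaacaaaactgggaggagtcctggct
Ifi213: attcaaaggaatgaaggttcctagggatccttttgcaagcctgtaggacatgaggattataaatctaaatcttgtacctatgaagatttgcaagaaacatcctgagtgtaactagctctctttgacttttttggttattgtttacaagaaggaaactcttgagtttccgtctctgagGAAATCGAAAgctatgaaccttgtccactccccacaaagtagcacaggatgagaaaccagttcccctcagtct
Ifi209: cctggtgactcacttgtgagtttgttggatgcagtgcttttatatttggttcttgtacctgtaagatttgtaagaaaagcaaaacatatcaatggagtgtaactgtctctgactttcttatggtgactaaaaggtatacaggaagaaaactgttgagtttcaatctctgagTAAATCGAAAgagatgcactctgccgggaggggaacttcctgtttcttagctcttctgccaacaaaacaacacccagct
Aim2: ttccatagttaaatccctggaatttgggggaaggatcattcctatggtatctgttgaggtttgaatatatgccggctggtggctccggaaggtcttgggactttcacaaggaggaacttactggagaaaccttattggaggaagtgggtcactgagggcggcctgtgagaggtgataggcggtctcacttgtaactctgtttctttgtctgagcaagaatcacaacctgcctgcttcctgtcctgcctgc

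The ISRE core, the sequence that interferon-activated STAT and IRF factors are known to bind, was matched before the starts of 3 of the 5 measured genes, Mndal, Ifi207 and Ifi213. In each of them the letters were GAAATCGAAA on the strand of the gene; the other annotated start of Mndal had a different match, on the opposite strand. The run began 36 bases before the start of Mndal, 41 before that of Ifi207 and 73 before that of Ifi213. Ifi209 held TAAATCGAAA from 79 bases before its start, which differs from the run by G1T, counted from the first base of the run. Aim2 held neither, and its nearest run had 3 mismatches. No match says only that these letters are not in this window.

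Over the family, 12 genes had a promoter entry, with 14 annotated starts, and 9 of the 12 genes matched the ISRE core. The exact run GAAATCGAAA, which was chosen after the sequences were seen, stood before 7 of them: Mndal, Ifi207, Ifi213, Ifi203, Ifi206, Ifi208 and Ifi214. In Ifi211 and Ifi205 the run was changed by C6T and still matched the core. Among all 32851 promoters of the same length, 978 (2.98%) matched the ISRE core and 13 (0.0396%) held the exact run, in 13 genes of which 6 lie outside the family. With 1 mismatch allowed on either strand, 399 promoters (1.21%) held the run. The GAS element, TTCNNNGAA, which reads the same on both strands, was found in 2306 promoters (7.02%) and in the family before Ifi202b alone. The genes of the cluster are related by sequence, so their shared letters are not independent of each other. A match is a description of letters and not of a bound site.

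**Figure D1:**
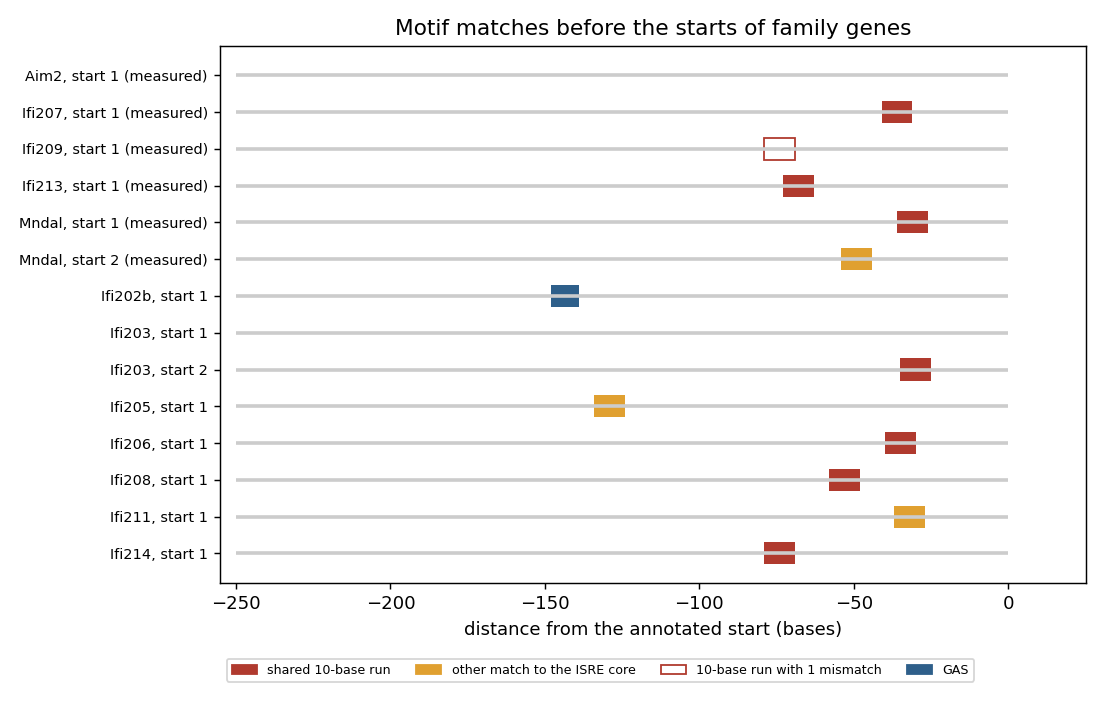
Position of motif matches in the 250 bases before each annotated start of the 12 family genes with an entry, in bases from the start; genes with a probe set of their own in the table are marked as measured. The shared run (red) lies between 79 and 26 bases before 7 genes, and in Ifi209 the run with 1 mismatch (open box) lies at the same distance as in Ifi214.

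In co-culture all 8 probe sets of the 5 genes were higher, by 1.5 to 4.58 on the log2 scale, with a median difference of 3.35. In limma with Benjamini-Hochberg adjustment 48.7% of the table's probe sets were called higher in co-culture and 100.0% were called in either direction, so nothing is read from the count of 8 of 8. Beside this, the 1642 higher probe sets of the table had a median difference of 1.07, with quartiles of 0.80 and 1.56. All 8 family probe sets lay above that median and 7 of them above the upper quartile, the exception being Aim2. The family was chosen with earlier results of these same arrays known, so its place among the higher probe sets is a description only.

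**Figure D2:**
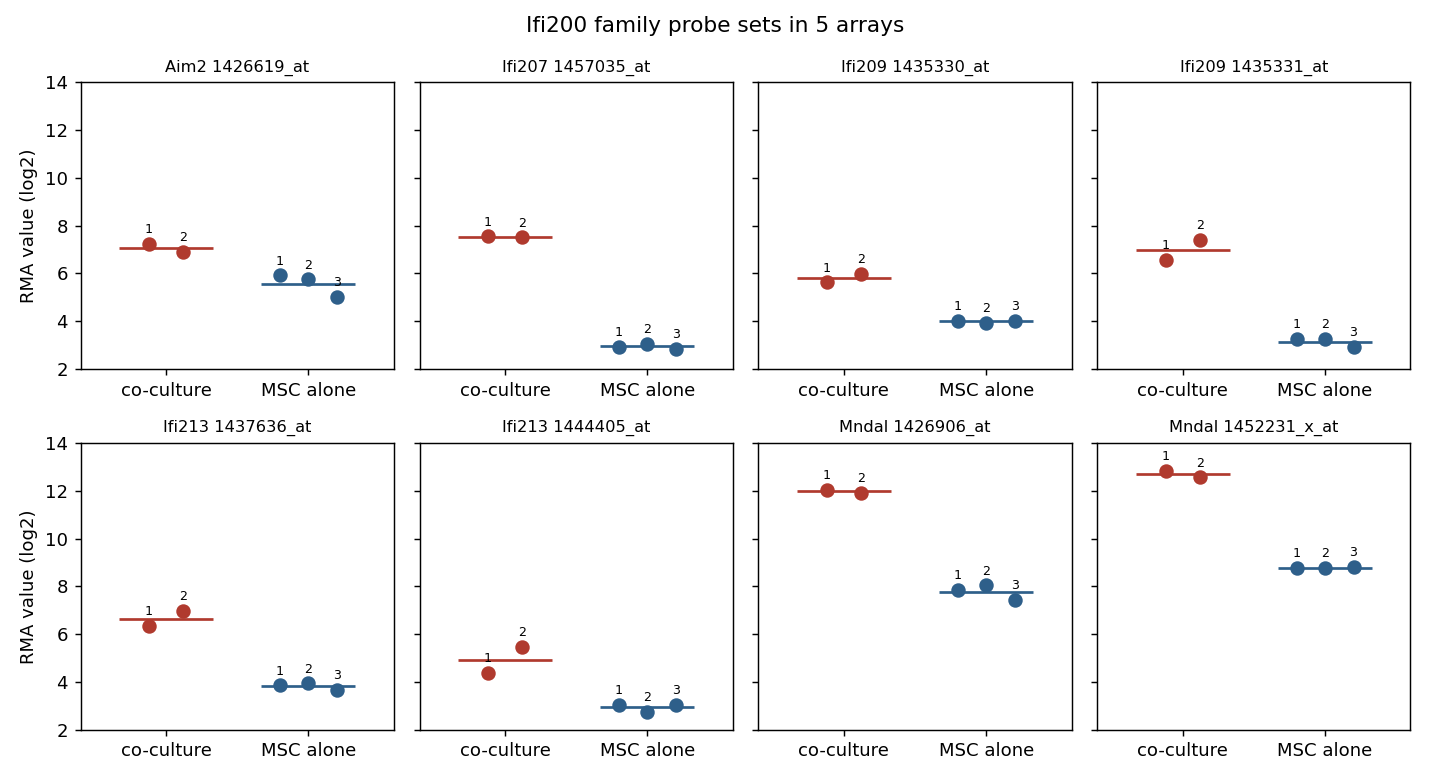
RMA values (log2) of the 8 probe sets in each array, with co-culture on the left and MSC alone on the right of each panel; numbers are replicates and lines are group means. The groups are apart in every panel, with the widest gap in Ifi207 and the narrowest in Aim2.

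Mndal encodes a p200 protein named for its likeness to the human myeloid nuclear differentiation antigen, and in mouse cells it has been reported to slow growth. Its probe set 1426906_at read 12.035 and 11.920 in co-culture replicates 1 and 2, against 7.860, 8.043 and 7.424 in MSC alone replicates 1, 2 and 3. Both co-culture arrays stood nearly level and at least 3.877 above the highest array of MSC alone, whose replicate 3 was the lowest. The means were 11.98 ± 0.08 (SD, n = 2) in co-culture and 7.78 ± 0.32 (SD, n = 3) in MSC alone, a difference of 4.20 ± 0.23 (moderated SE), or 18.4-fold. The probe set 1452231_x_at read 12.837 and 12.559 in co-culture, against 8.764, 8.758 and 8.808 in MSC alone, a difference of 3.92 ± 0.18 or 15.2-fold. Here the 3 arrays of MSC alone lay within 0.050 of each other, the narrowest range of MSC alone among the 8 probe sets, and replicate 3 was no longer the lowest. Both Mndal probe sets lay away from the low values that RMA compresses, with 53.0% and 72.1% of the MSC alone values below their means there. For Aim2, with a mean of 5.57 in MSC alone, 15.7% were lower. The probe sets of Ifi207, Ifi209 and Ifi213 had means under 5 in MSC alone. Probe sets ending in _x_at can bind related transcripts, and with paralogs this similar the reading of any family probe set as 1 gene is uncertain.

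Ifi207 encodes a pyrin and HIN domain protein that in mouse macrophages has been linked to cytokine gene transcription. It read 7.551 and 7.504 in co-culture, against 2.922, 3.058 and 2.849 in MSC alone. The co-culture arrays agreed within 0.047 and the MSC alone arrays within 0.209, while 4.446 separated the nearest arrays of the 2 groups. The means were 7.53 ± 0.03 (SD, n = 2) and 2.94 ± 0.11 (SD, n = 3), a difference of 4.58 ± 0.17 (moderated SE), or 24.0-fold, and 21st in size among the 1642 higher probe sets. Only 0.1% of the values of the MSC alone arrays were lower than the mean of Ifi207 there, close to the lowest value of the table, 2.619. Without detection calls it cannot be said whether the transcript was present in MSC alone, and the fold is uncertain.

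Ifi209, which also carries the name Pyhin1 in RefSeq, had probe sets that gave unlike sizes. Probe set 1435331_at read 6.571 and 7.404 in co-culture, against 3.240, 3.240 and 2.909 in MSC alone, a difference of 3.86 ± 0.29 (moderated SE) or 14.5-fold. Probe set 1435330_at read 5.624 and 5.970 in co-culture, against 4.008, 3.939 and 4.014 in MSC alone, a difference of 1.81 ± 0.19 or 3.51-fold. In both the groups were apart and co-culture replicate 2 was the higher co-culture array. Of the MSC alone values 0.3% were lower than the mean of 1435331_at there and 2.9% lower than that of 1435330_at, so both folds are uncertain. The annotation gives both probe sets the same source sequence, so the size of the difference of Ifi209 depended on which was read.

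Ifi213 encodes another family protein, for which less is known. Probe set 1437636_at read 6.339 and 6.957 in co-culture, against 3.850, 3.935 and 3.658 in MSC alone, a difference of 2.83 ± 0.24 (moderated SE) or 7.13-fold. Probe set 1444405_at read 4.375 and 5.480 in co-culture, against 3.024, 2.740 and 3.023 in MSC alone, a difference of 2.00 ± 0.34 or 4.0-fold. The groups did not overlap in either, but the co-culture arrays of 1444405_at lay 1.105 apart, the widest range within a group among the 8 probe sets. As in Ifi209, co-culture replicate 2 was the higher array in both probe sets. The folds are uncertain here too, with 0.1% of the MSC alone values below the mean of 1444405_at there and 1.9% below that of 1437636_at.

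Aim2 had the smallest difference of the 5 genes. It read 7.241 and 6.884 in co-culture, against 5.918, 5.750 and 5.032 in MSC alone. The groups were apart by 0.966, and MSC alone replicate 3 stood 0.718 below the next array, so that the 3 arrays of MSC alone spread over 0.886. The means were 7.06 ± 0.25 (SD, n = 2) in co-culture and 5.57 ± 0.47 (SD, n = 3) in MSC alone, a difference of 1.5 ± 0.31 (moderated SE), or 2.82-fold, and 454th in size among the 1642 higher probe sets. Without co-culture replicate 2 Aim2 was not the smallest, at 1.67 on the log2 scale against 1.64 for Ifi209 1435330_at and 1.45 for Ifi213 1444405_at. Aim2 lay at the end of the cluster, and its window held neither the ISRE core nor the shared run with 1 mismatch. Ifi209 also had no match to the core. Whether the window bears on the size of the difference was not tested, and with 5 genes this is a description only.

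**Figure D3:**
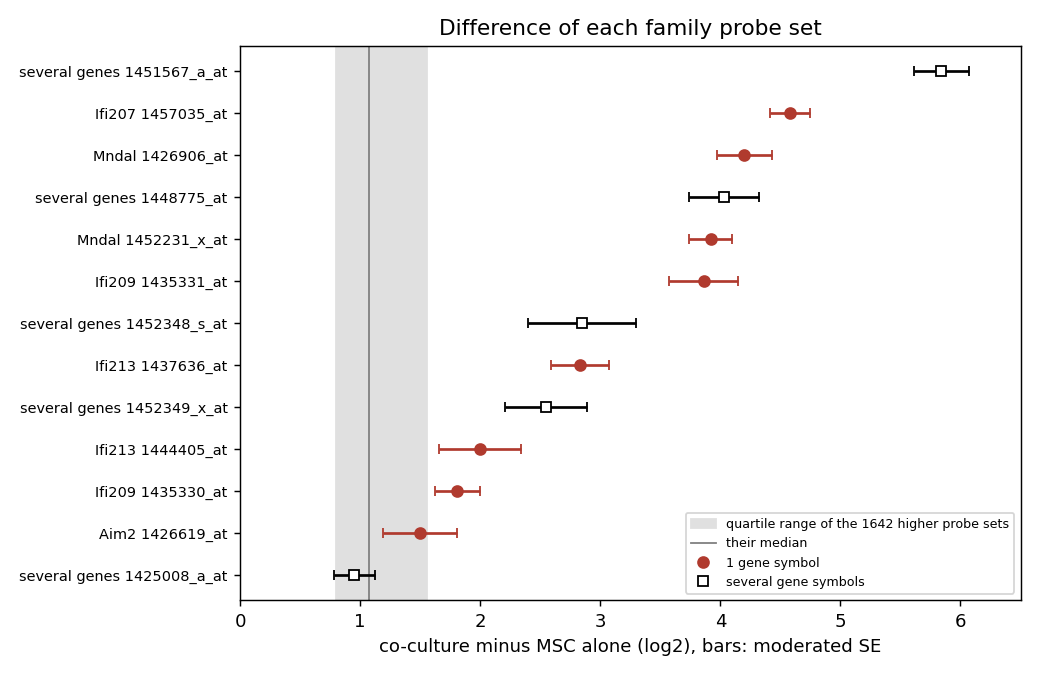
Difference between co-culture and MSC alone (log2; bars are moderated SE) for the 8 probe sets with 1 gene symbol (filled) and the 5 with several symbols (open), beside the median (line) and the range between the quartiles (grey band) of all higher probe sets of the table. Ifi207 and both Mndal probe sets lie between 3.92 and 4.58, with Ifi209 1435331_at just below them at 3.86, and Aim2 at 1.5 lies inside the grey band. Among the open symbols 1451567_a_at lies highest, at 5.84.

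A further 5 probe sets named several genes, at least 1 of them of the family, and were given to no gene. All 5 were higher in co-culture. The differences were 5.84 ± 0.23 (moderated SE) for 1451567_a_at, 3rd in size among the 1642 higher probe sets, 4.03 ± 0.29 for 1448775_at, 2.85 ± 0.45 for 1452348_s_at, 2.55 ± 0.34 for 1452349_x_at and 0.95 ± 0.17 for 1425008_a_at. Probe set 1451567_a_at read 9.790 and 10.309 in co-culture, against 4.247, 4.384 and 3.991 in MSC alone. It, 1448775_at and 1425008_a_at name Ifi203 beside symbols that the rule does not take. Probe set 1452349_x_at names Ifi211 and Ifi205. Probe set 1452348_s_at names Mndal with Ifi211, Ifi205 and Ifi204, and its 7.2-fold difference was smaller than those of both probe sets with Mndal as single symbol. Together with the members, 13 family probe sets were in the table and 13 were higher in co-culture, a count from which, beside the 48.7% called higher and 100.0% called in either direction over the table, nothing is read either.

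Within the groups the family probe sets did not vary as 1 block. The 2 probe sets whose symbols were all of the family, 1452348_s_at and 1452349_x_at, were highest in MSC alone replicate 3, at 9.146 against 7.840 and 7.871 in replicates 1 and 2 for the first of them. For 1452349_x_at replicate 3 read 10.644, against 9.609 and 9.675. These deviations from the mean of MSC alone, 0.86 and 0.67, went the opposite way to those of Aim2 and of Mndal 1426906_at in the same array, which were -0.53 and -0.35. Mndal is also among the symbols of 1452348_s_at. Of the 8 probe sets with 1 symbol, 5 were lowest in MSC alone replicate 3, beside 50.0% of the 1642 higher probe sets of the table. Between the co-culture arrays, all 4 probe sets of Ifi209 and Ifi213 were higher in replicate 2, while both of Mndal and those of Ifi207 and Aim2 were higher in replicate 1; of the 1642 higher probe sets 71.1% were higher in replicate 2. The median over the table was 7.50 and 7.42 in co-culture replicates 1 and 2, and 7.64, 7.63 and 7.61 in MSC alone, so the array medians differed by less than most of these gaps.

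**Figure D4:**
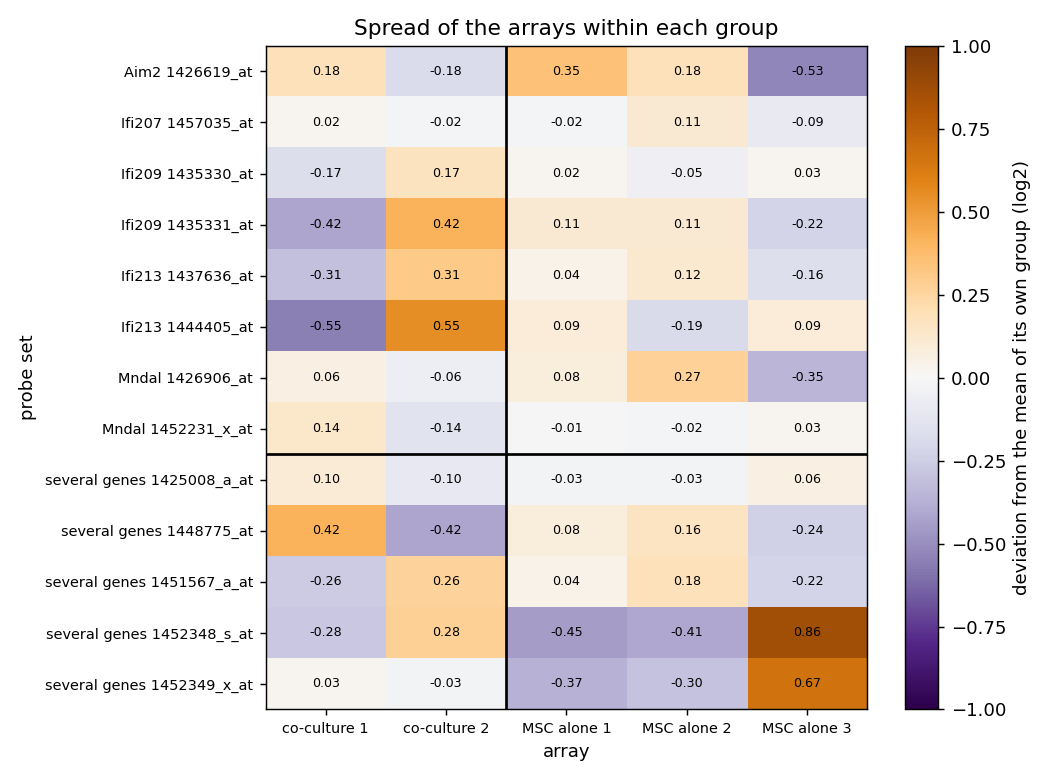
Deviation of each array from the mean of its own group (log2, in the cells and as colour) for the 13 family probe sets, co-culture arrays first; the horizontal line divides probe sets with 1 gene symbol from those with several. MSC alone replicate 3 is low for Aim2 and Mndal 1426906_at and high for 1452348_s_at and 1452349_x_at.

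Likeness to other genes was measured as the root-mean-square distance between the values of the brightest probe sets over the 5 arrays, each centred on its own mean, and it carries no statement on function. Mndal was nearest to Gm4951 and to Gbp8, a guanylate-binding protein gene, both at 0.11 on the log2 scale, followed by Phf11d at 0.32. Ifi207 was nearest to Mpeg1, the gene of the macrophage pore-former perforin-2, at 0.23, and then to the immunoproteasome subunit gene Psmb9 and the chemokine gene Ccl8, both at 0.27. Ifi213 was nearest to Gm9706 at 0.14, to the adhesion molecule gene Vcam1 at 0.16 and to Dennd6b at 0.17. Ifi209 was nearest to the RNA-binding protein gene Rbm43 at 0.08, and then to Pnpt1, which encodes the mitochondrial polynucleotide phosphorylase, and the class I heavy chain gene H2-K1, both at 0.11. For Ifi209 this was read from 1435330_at, with a difference of 1.81, and not from 1435331_at, with 3.86. Aim2 was nearest to Atm, which encodes a kinase of the DNA damage response, and to the urokinase receptor gene Plaur, both at 0.14, and to the kinase gene Prkd2 at 0.15. Between members the closest were Ifi207 and Mndal at 0.34 and the farthest Aim2 and Ifi207 at 1.54. Every gene of the table separates the groups, so these distances mostly follow the size of the difference.

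Of the genes around the p200 proteins, the lists gave few measured members for the nearest partners and more for interferon signalling. Measured means kept in the deposited table, where every probe set separates the groups. The share of all array genes that was kept is not known here, so nothing is read from how many of a list were measured. Among named genes of the table, 48.3% were called higher in co-culture, and the median over all probe sets, higher and lower together, was -0.58 on the log2 scale. The median of a list whose measured genes were all higher stands beside that of the 1642 higher probe sets, 1.07, with quartiles of 0.80 and 1.56. Of 31 listed symbols for DNA sensing and STING signalling 4 were measured, with 2 higher and 2 lower and a median of -0.20. Zbp1, whose protein binds Z-form DNA and RNA, read 11.911 and 12.131 in co-culture, against 7.591, 7.777 and 4.944 in MSC alone, a 38.1-fold difference that was 20.2-fold without MSC alone replicate 3. On the log2 scale this difference was 5.25, and that of the other probe set of Zbp1 was 3.16. Tbk1, the kinase downstream of STING, was 1.68-fold higher. Dnase2a, a lysosomal DNA nuclease gene, was 2.84-fold and Dhx36, a helicase gene, 2.21-fold lower in co-culture. The genes of cGAS and of STING itself were not analysed here.

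Of 25 symbols for inflammasome and pyrin domain genes 3 were measured, all higher: Casp4 by 4.75-fold, Il18bp, which encodes a decoy for interleukin-18, by 5.26-fold and Naip2, a receptor for bacterial proteins, by 2.91-fold. Pycard, Casp1 and Gsdmd, through which Aim2 acts, were not analysed here. All 9 measured of 27 symbols for RNA sensing were higher, with a median of 1.71, led by Oas1a at 8.94-fold and Oas2 at 5.61-fold, which encode oligoadenylate synthetases. Dhx58 was 4.96-fold and Ddx60 3.59-fold higher, and the other probe set of Dhx58 was higher by 1.69 on the log2 scale. Without co-culture replicate 1 these were 3.15-fold and 2.10-fold, and without co-culture replicate 2 they were 7.80-fold and 6.14-fold. All 13 measured of 29 symbols for interferon receptors, JAK-STAT and IRF genes were higher, with a median of 1.5, led by Usp18, a negative regulator of interferon signalling, at 8.83-fold, Irf7 at 7.19-fold, Stat2 at 6.14-fold and Irf9 at 4.56-fold. Irf1 was not analysed here. These lists were chosen with earlier results of these data known, and only genes that separate the groups could be measured. Beside the 48.3% of named genes called higher over the table, nothing is read from a list whose measured genes were all higher. Of 28 symbols for growth control and differentiation partners of p200 proteins 4 were measured: Rbl1 and Mdm2 were 2.80-fold and 2.40-fold higher, and Brca1 and Hdac1 were 2.34-fold and 1.88-fold lower in co-culture.

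**Figure D5:**
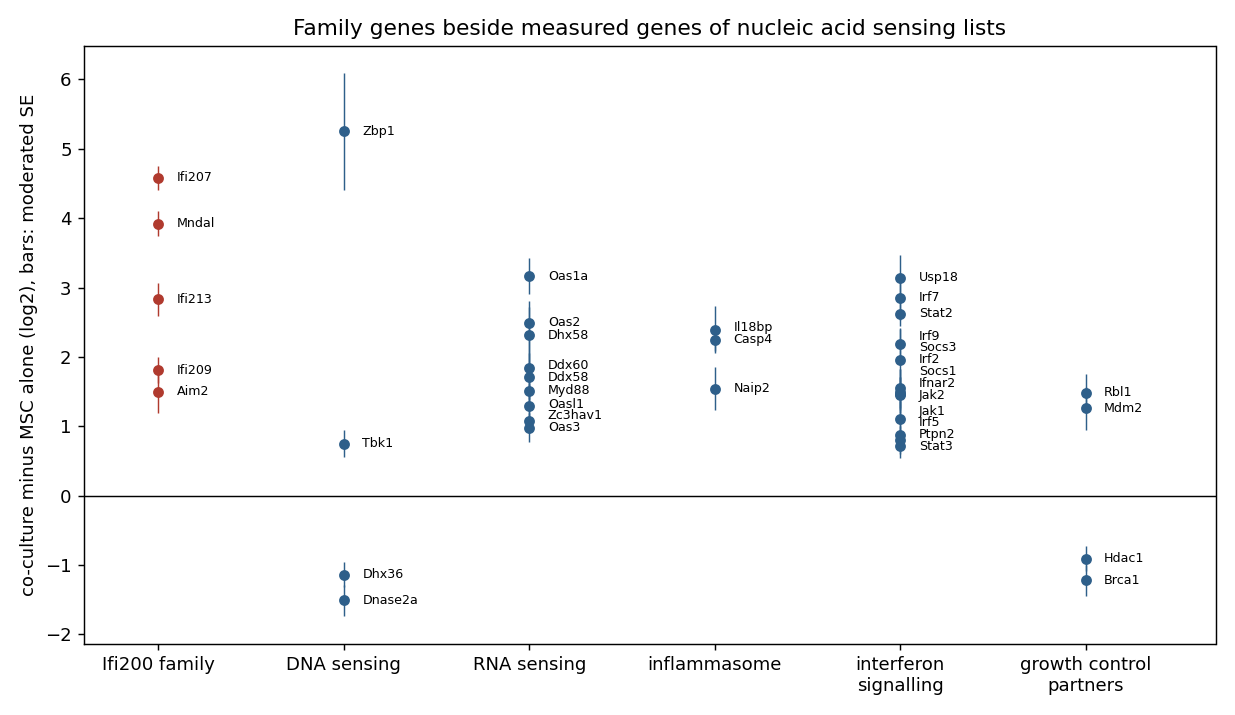
Difference between co-culture and MSC alone (log2; bars are moderated SE) for the 5 family genes, each by its brightest probe set, beside every measured gene of the 5 lists, read in the same way. Ifi207 and Mndal lie above all measured genes of the lists except Zbp1, whose other probe set (3.16, not drawn) lies below both. The other probe set of Ifi209 (3.86, not drawn) would also lie above all drawn list genes except Zbp1. A gene above the line at 0 is higher in co-culture.

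Of 20 MSC markers 9 were measured, 2 of them higher and 7 lower in co-culture, beside 48.3% of named genes called higher over the table. The mean level of these 9 was 9.53 and 9.31 in co-culture and between 10.63 and 10.87 in MSC alone. Of these markers the collagen genes Col3a1 and Col1a1 were 25.5-fold and 15.4-fold lower and the chemokine gene Cxcl12 11.5-fold lower, and Pdgfra, a growth factor receptor gene, was 13.7-fold higher, or 8.47-fold without MSC alone replicate 3. The other higher marker was Vcam1, by 7.5-fold. On the log2 scale the differences of the other probe sets of Col3a1 and Col1a1 were -6.35 and -5.13, and those of the probe sets read here were -4.67 and -3.94. Of 25 macrophage and monocyte markers 2, Mpeg1 and Ctss, were measured, and their mean level was 8.03 and 7.35 in co-culture and 3.74, 4.24 and 4.03 in MSC alone. Every probe set of the table separates the groups, so nothing is read from this difference or from that of the MSC markers. Mpeg1 and Ctss were higher in co-culture replicate 1, as were Mndal, Ifi207 and Aim2, while Ifi209 and Ifi213 were higher in replicate 2. The 2 arrays lay 0.624 apart for Mpeg1 and 0.726 for Ctss. They lay 0.047 apart for Ifi207, 0.115 and 0.278 for the probe sets of Mndal and 0.357 for Aim2. Of the 1642 higher probe sets 71.1% were higher in replicate 2. With 2 arrays, nothing is read from which of them was higher. The part of such cells in the family's values was not tested; Ptprc, Adgre1, Csf1r and the other 20 markers were not analysed here. Of 25 T cell markers 0 were measured.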

How the data were processed

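RNA was extracted with Trizol and biotin-labelled cRNA was hybridised to Affymetrix arrays, per the labels' protocols. Per the submitters' processing notes, the authors made the deposited log2 values, 1 per probe set, with RMA (no version stated). The method corrects background, normalises arrays by quantiles and gives no detection call, so low values are compressed. The sources used here do not say by which rule 3373 probe sets were kept. The platform's probe table gave 3013 probe sets 1 symbol and 69 several, and 291 are unnamed here. All 5 member identifiers were found in RefSeq (GRCm38.p6), with 0 symbols changed.

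Groups were taken from the sample titles. Differences and moderated standard errors came from limma 3.58.1 under R 4.3.3 (lmFit and eBayes, 5 arrays in 1 fit, no covariates, no filter), with two-sided tests adjusted by Benjamini-Hochberg over all probe sets and a threshold of 0.05. The fit was also run on simulated data in which most probe sets had no difference and none was selected. That run cannot speak for the differences or errors of the selected values used here. The number of arrays limits the precision, and a table selected for separated groups favours small errors and large differences. A gene was read from its brightest probe set. The members, gene lists and rules were chosen with earlier results of these data known. Named are all members, up to 4 genes of each list with the largest difference, the 3 genes nearest to each member, and the neighbours on the chromosome.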

Additional observations from a re-analysis of the deposited data

How the results depend on the processing

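All 8 probe sets stayed higher in co-culture under every alternative that could be computed, and no fold of a member moved by over 1.5 times when 1 array was left out. Leaving out each array in turn gave differences, on the log2 scale, of 1.23 to 1.67 for Aim2, 4.54 to 4.64 for Ifi207, 1.64 to 1.98 for Ifi209 1435330_at, 3.44 to 4.27 for Ifi209 1435331_at, 2.52 to 3.14 for Ifi213 1437636_at, 1.45 to 2.55 for Ifi213 1444405_at, 4.03 to 4.34 for Mndal 1426906_at and 3.78 to 4.06 for Mndal 1452231_x_at, and a median over the 8 of 2.98 to 3.46. Centring each array on its median over the table raised every difference by 0.16, to 4.75 for Ifi207, 1.97 for Ifi209 1435330_at and 4.09 for Mndal 1452231_x_at, moves larger than the residual SD pooled over both groups, although in Ifi209 1435330_at and Mndal 1452231_x_at the co-culture arrays alone lay farther apart than that. Without the dimmest 25% of probe sets 6 of the 8 dropped out and gave no value, and the median of the remaining 2, both of Mndal, was 4.06; fewer probe sets enter it. Reading the other probe set of a gene gave 3.86 for Ifi209, 2.00 for Ifi213 and 4.20 for Mndal, in place of 1.81, 2.83 and 3.92; the cause was not tested.

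The groups share replicate numbers 1 and 2. Deviations of same-numbered arrays correlated across probe sets at 0.221 for number 1 and 0.32 for number 2. The 2 co-culture arrays deviate from their mean as mirror images, so these values are not separate agreements. MSC alone replicate 3, which has no partner, correlated at 0.106 with co-culture replicate 1 and at -0.106 with replicate 2. With only 2 shared numbers and no label that ties them, the arrays are taken to share only a number. With the replicate block the median of the 8 differences was 3.25, the difference of Aim2 was 1.23 and that of Ifi207 was 4.54, and 3365 probe sets of the table were called. Replicate number 3 exists only in MSC alone, so these differences equal those without MSC alone replicate 3 and are no separate check. Of the table's probe sets, 3315 were called with centred arrays and 3281 without moderation of the spread, and between 3116 and 3371 with 1 array left out. What could not be measured without detection calls is whether Ifi207, Ifi209 and Ifi213 were expressed in MSC alone.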
